A study of Mus musculus with 11 samples.

Results

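Oligodendrocytes wrap axons of the brain in myelin, and 32 genes of this lineage were followed in the nucleus accumbens of mice without a working Rarb gene, which encodes retinoic acid receptor beta. The genes were chosen by name: each is a known component, enzyme or regulator of myelin or of the cells that make it, and each had 1 probe set with a single gene symbol, out of 19938 genes measured. They comprised 23 genes of mature, myelinating cells, 3 of newly formed oligodendrocytes, 3 of oligodendrocyte precursors, and the transcription factor genes Sox10, Olig1 and Olig2, which are used throughout the lineage. The array set held 5 Rarb-null male mice and 6 wild-type (WT) male littermates, 4 to 5 months old and behaviourally naive, bred from heterozygous parents on a mixed C57BL/6J and 129SvEms/j background. Tissue enriched in the accumbens shell was taken on both sides with a 0.5 mm punch, and each mouse gave 1 Affymetrix Mouse Gene 1.0 ST array. Group sizes follow the sample titles and the design text, whereas the extraction protocol gives 6 mutants and 5 WT mice. The construct that inactivates Rarb was not given in the sources used here.

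Rarb itself read 9.88, 9.86, 10.01, 9.99 and 9.72 in the Rarb-null arrays, against 11.70 to 11.81 in the WT arrays, on the log2 scale of robust multi-array analysis (RMA), which all levels below use. The titles thus matched the genotype in all 11 arrays. The median of each array lay between 7.08 and 7.11 in Rarb-null and between 7.02 and 7.06 in WT mice, so a small offset between genotypes remained in the deposited values. Of 11963 genes above a filter on dim genes, 905 were higher and 1436 lower in Rarb-null arrays (limma, Benjamini-Hochberg adjusted p under 0.05), and with each array centred on its median the split became 1677 higher and 939 lower. The median difference over all genes tested was -0.02, and centring moved it to 0.02. Differences are Rarb-null minus WT throughout.

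Oligodendrocytes arise from precursors that carry the growth factor receptor Pdgfra and the proteoglycan Cspg4. Precursors that exit the cell cycle pass through a short-lived premyelinating stage and then switch on genes of the myelin sheath, such as Mbp, Mog and Mag, under the transcription factors Olig2, Sox10 and Myrf. Retinoic acid receptors bind DNA as partners of retinoid X receptors, at paired copies of a short core motif. In rodents the retinoid X receptor gamma is known to favour the maturation of precursors.

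The promoters of both members with the largest differences, Opalin and Aspa, are shown beside those of Mog and Mobp, which did not pass the test, because Opalin and Aspa separated the genotypes while Mog and Mobp did not. Each is the RefSeq window of 300 bases on assembly GRCm38.p6, 250 before and 50 after the annotated start, 5′ to 3′ on the gene's strand. The windows are Opalin at chr19:41077064-41077363 (minus strand), Aspa at chr11:73324588-73324887 (minus), Mog at chr17:37023349-37023648 (minus) and Mobp at chr9:120149492-120149791 (plus). Capitals mark 3 kinds of motif found on either strand, namely ACAAAG or AACAAT (bound by SOX factors), CATCTG or CAGCTG (E boxes, bound by factors such as Olig2) and AGGTCA or AGTTCA (core motifs of retinoid receptors).
Opalin: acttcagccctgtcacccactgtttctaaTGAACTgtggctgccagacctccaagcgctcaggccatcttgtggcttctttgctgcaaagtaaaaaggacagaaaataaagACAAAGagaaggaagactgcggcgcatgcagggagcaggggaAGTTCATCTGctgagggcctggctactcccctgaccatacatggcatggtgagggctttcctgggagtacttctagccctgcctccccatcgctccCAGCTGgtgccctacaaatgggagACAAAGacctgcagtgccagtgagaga
Aspa: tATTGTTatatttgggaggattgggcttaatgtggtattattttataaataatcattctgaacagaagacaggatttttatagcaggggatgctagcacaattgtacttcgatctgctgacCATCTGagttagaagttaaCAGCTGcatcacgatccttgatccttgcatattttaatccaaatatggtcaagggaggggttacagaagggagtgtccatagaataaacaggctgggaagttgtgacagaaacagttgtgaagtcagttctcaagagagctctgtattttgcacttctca
Mog: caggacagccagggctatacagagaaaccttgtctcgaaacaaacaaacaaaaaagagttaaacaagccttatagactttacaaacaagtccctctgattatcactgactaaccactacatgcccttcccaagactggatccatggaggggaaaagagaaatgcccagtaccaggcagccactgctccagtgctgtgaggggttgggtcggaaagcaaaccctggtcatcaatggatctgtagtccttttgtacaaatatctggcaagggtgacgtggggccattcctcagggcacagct
Mobp: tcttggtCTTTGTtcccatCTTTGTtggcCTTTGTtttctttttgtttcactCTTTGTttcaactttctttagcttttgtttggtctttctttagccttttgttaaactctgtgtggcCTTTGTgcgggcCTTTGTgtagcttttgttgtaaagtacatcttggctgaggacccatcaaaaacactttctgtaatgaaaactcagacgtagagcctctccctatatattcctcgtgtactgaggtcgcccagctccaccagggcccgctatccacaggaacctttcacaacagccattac

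The Opalin window held 2 SOX motifs, 2 E boxes and 2 retinoid core motifs, of which 1 overlapped an E box in a single run of capitals. Aspa had 1 SOX motif and 2 E boxes, Mobp had 6 SOX motifs, and Mog had none of the 3 kinds. The table covered 22 members with 28 windows, and 6 of the 8 lower members (not Car2 or Fa2h). Because Mag and Tspan2 have several windows, and those of Mag overlap in part, genes were counted once, by a match in any window. A SOX motif was found in 5 of 6 lower members and in 4 of 13 tested members that did not pass, against 30.0% of 27025 genes with a window. E boxes were found in 4 of 6 and 5 of 13, against 33.4% of all. A retinoid core motif was found in 1 of 6 lower members, Opalin, in 0 of 13 of those that did not pass, and in 30.4% of all. These are matches of letters within short windows, and binding was not measured.

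Part of the mature program was lower in Rarb-null arrays, and none of the 3 precursor members passed the test, although 6 of 24 further genes of precursors and early cells fell, as described later. Above the filter on dim genes stood 29 of the 32 members, and of these 8 fell, 0 rose and 21 did not pass. Of the members 27.6% fell and 0% rose, against 12% and 7.56% of all genes tested (19.6% in either direction). All 8 falls belonged to the mature genes: Opalin, Aspa, Car2, Tspan2, Gpr37, Mag, Cnp and Fa2h. The 21 mature genes tested had a median difference of -0.12, and the 5 tested genes of precursors and newly formed cells a median of 0.03. With arrays centred these medians were -0.075 and 0.069. C1ql1 of the precursors was the 1 member that rose there, where 14.0% of all genes were called higher. The falls were small, from 1.10-fold for Cnp to 1.32-fold for Aspa. Between 5 and 10 members were lower when 1 array was left out, where 8.07% to 13.1% of all genes were lower. The 6 arrays whose omission left 5 were Rarb-null replicates 1 and 4 and WT replicates 1, 4, 5 and 6. With arrays centred 4 members were lower, namely Opalin, Aspa, Car2 and Tspan2, where 7.85% of all genes were called lower. In tissue of mixed cells, fewer oligodendrocytes and less RNA per oligodendrocyte cannot be told apart.

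**Figure D1:**
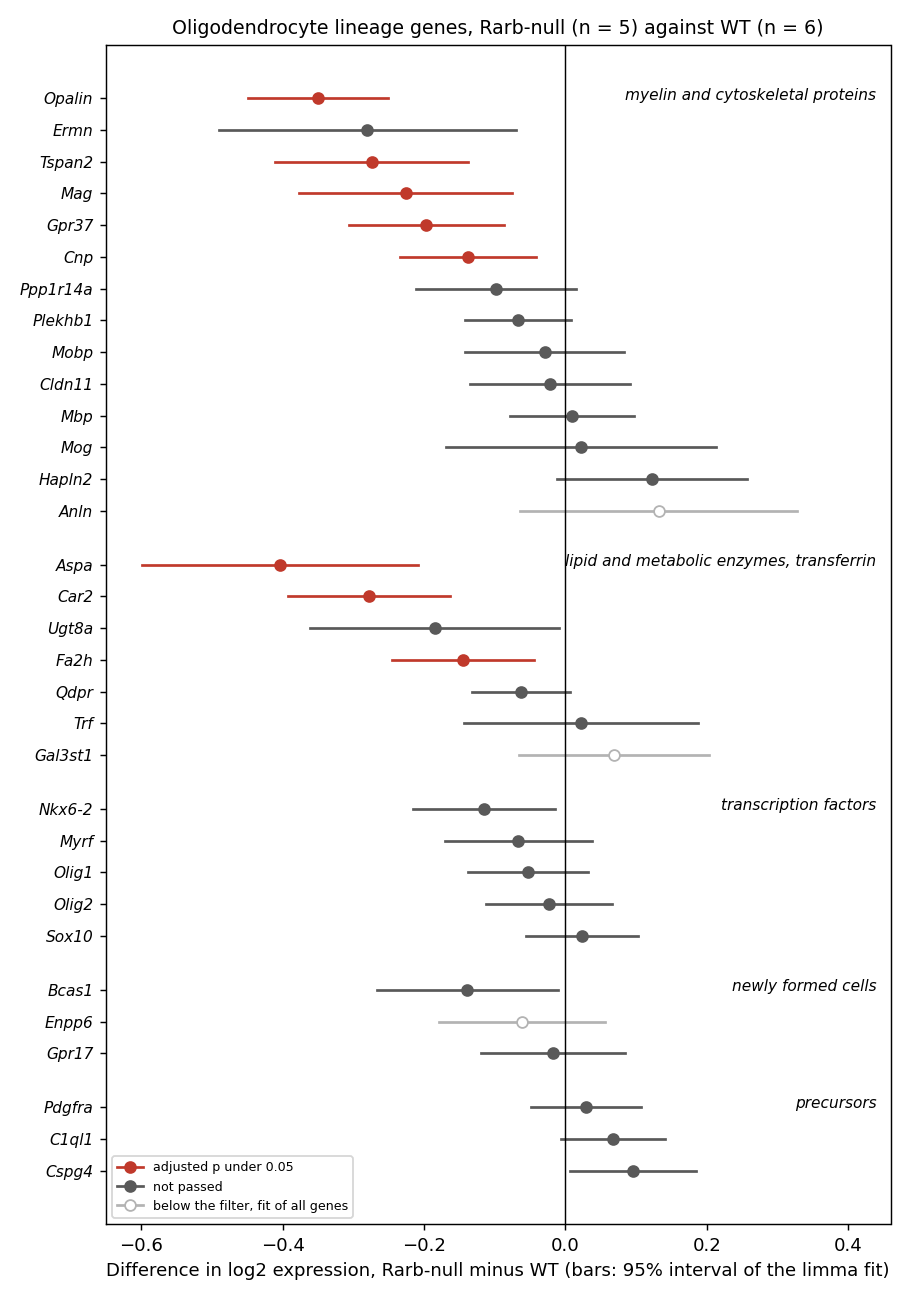
Difference in log2 expression between 5 Rarb-null and 6 WT arrays for each of the 32 genes, grouped by role, with the 95% interval of the limma fit. The 8 red genes passed an adjusted p of 0.05 and all lie left of 0, between -0.40 and -0.14, while the 3 precursor genes lie between 0.03 and 0.10.

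Among the genes of myelin proteins, Opalin separated the genotypes most clearly. It encodes a glycosylated membrane protein of central myelin that lies at the loops beside the node. Opalin read 7.79, 7.83, 7.94, 7.79 and 7.75 in the Rarb-null arrays, against a lowest value of 8.07, a median of 8.16 and a highest of 8.31 in the WT arrays. The groups did not overlap, which held for 4 of the 29 members, all lower, and for 11.2% of all genes (7.33% lower). The mean was 7.82 ± 0.07 in Rarb-null and 8.17 ± 0.08 in WT arrays (SD, n = 5 and 6), a difference of -0.35 (SE 0.046, limma Benjamini-Hochberg adjusted p = 0.000171). Opalin passed under all 22 alternative settings in which it was tested, with differences from -0.38 to -0.31.

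Tspan2, which encodes a tetraspanin of the myelin membrane, read 9.10, 9.19, 9.05, 8.90 and 9.16 in the Rarb-null arrays, against 9.24, 9.32 and 9.54 as the lowest, median and highest WT values. Its groups did not overlap either, although the highest Rarb-null array lay just under the lowest WT array. The difference was -0.27 (SE 0.063, limma adjusted p = 0.00969), and it missed the threshold when the level of cortical markers was a covariate (limma adjusted p = 0.0595). Gpr37, a receptor gene that in mice restrains oligodendrocyte maturation, read 8.81, 8.97, 8.84, 8.75 and 9.02 in the Rarb-null arrays and 9.02, 9.05 and 9.21 at the lowest, median and highest of the WT arrays. Rarb-null replicate 5 reached the WT range and the other 4 stayed under it, with a difference of -0.20 (SE 0.051, limma adjusted p = 0.0175). Under each of 3 rescalings of the arrays Gpr37 just missed the threshold (-0.16 in all, limma adjusted p from 0.0507 to 0.0574).

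The adhesion molecule gene Mag, whose protein sits on the innermost myelin layer facing the axon, read 9.30, 9.57, 9.40, 9.16 and 9.50 in the Rarb-null arrays and 9.53, 9.58 and 9.80 at the lowest, median and highest of the WT arrays. Rarb-null replicate 2 lay inside the WT range, and the difference was -0.23 (SE 0.070, limma adjusted p = 0.0386). Cnp, the gene of the cyclic nucleotide phosphodiesterase that keeps cytoplasmic channels of myelin open, read 10.68, 10.85, 10.86, 10.66 and 10.77 in the Rarb-null arrays and 10.82, 10.90 and 10.98 at the lowest, median and highest of the WT arrays. Rarb-null replicates 2 and 3 lay inside the WT range, and the difference was -0.14 (SE 0.045, limma adjusted p = 0.0457). Both calls sat near the threshold. Mag was called under 8 of 23 alternatives and in 4 of 11 fits that left out 1 array, Cnp under 7 of 23 and in 3 of 11, and both were lost under all 3 rescalings (limma adjusted p from 0.0916 to 0.184).

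The most abundant structural genes of compact myelin showed no such difference. Mbp, whose basic protein holds the membrane layers together, read 10.77, 10.86, 10.82, 10.71 and 10.76 in the Rarb-null arrays and 10.68, 10.78 and 10.87 at the lowest, median and highest of the WT arrays. The ranges overlapped almost completely, and the difference of 0.01 had a 95% interval from -0.08 to 0.10, which leaves out a fall of the size of Opalin's. Mobp, a second basic protein gene of compact myelin, gave -0.03 (-0.14 to 0.08), and Cldn11, which forms the tight junctions between myelin wraps, gave -0.02 (-0.14 to 0.09).

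Mog, the glycoprotein gene of the outermost myelin surface, varied widely in both genotypes. It read 9.74, 10.03, 9.70, 9.58 and 9.81 in the Rarb-null arrays and 9.54, 9.73 and 10.05 at the lowest, median and highest of the WT arrays, with Rarb-null replicate 2 and WT replicate 1 standing highest. Its difference of 0.02 therefore had a wide interval, from -0.17 to 0.21. Ermn, the gene of the cytoskeletal protein ermin made late in differentiation, differed by -0.28 but with a spread that kept it over the threshold (SE 0.097, limma adjusted p = 0.0593). It passed under 4 of 23 alternatives, among them array weights (limma adjusted p = 0.0296).

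Smaller differences that did not pass were -0.10 for Ppp1r14a, an inhibitor of myosin phosphatase, and -0.07 for Plekhb1, which encodes a membrane-binding protein with a pleckstrin homology domain. Hapln2, whose protein links hyaluronan to proteoglycans at the nodes, went the other way with 0.12 (limma adjusted p = 0.174), from 7.45 to 7.64 in Rarb-null and from 7.22 to 7.57 in WT arrays. Anln, the gene of the septin- and actin-binding protein anillin, stood below the filter, and it read from 6.80 to 7.16 in Rarb-null and from 6.68 to 7.22 in WT arrays.

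**Figure D2:**
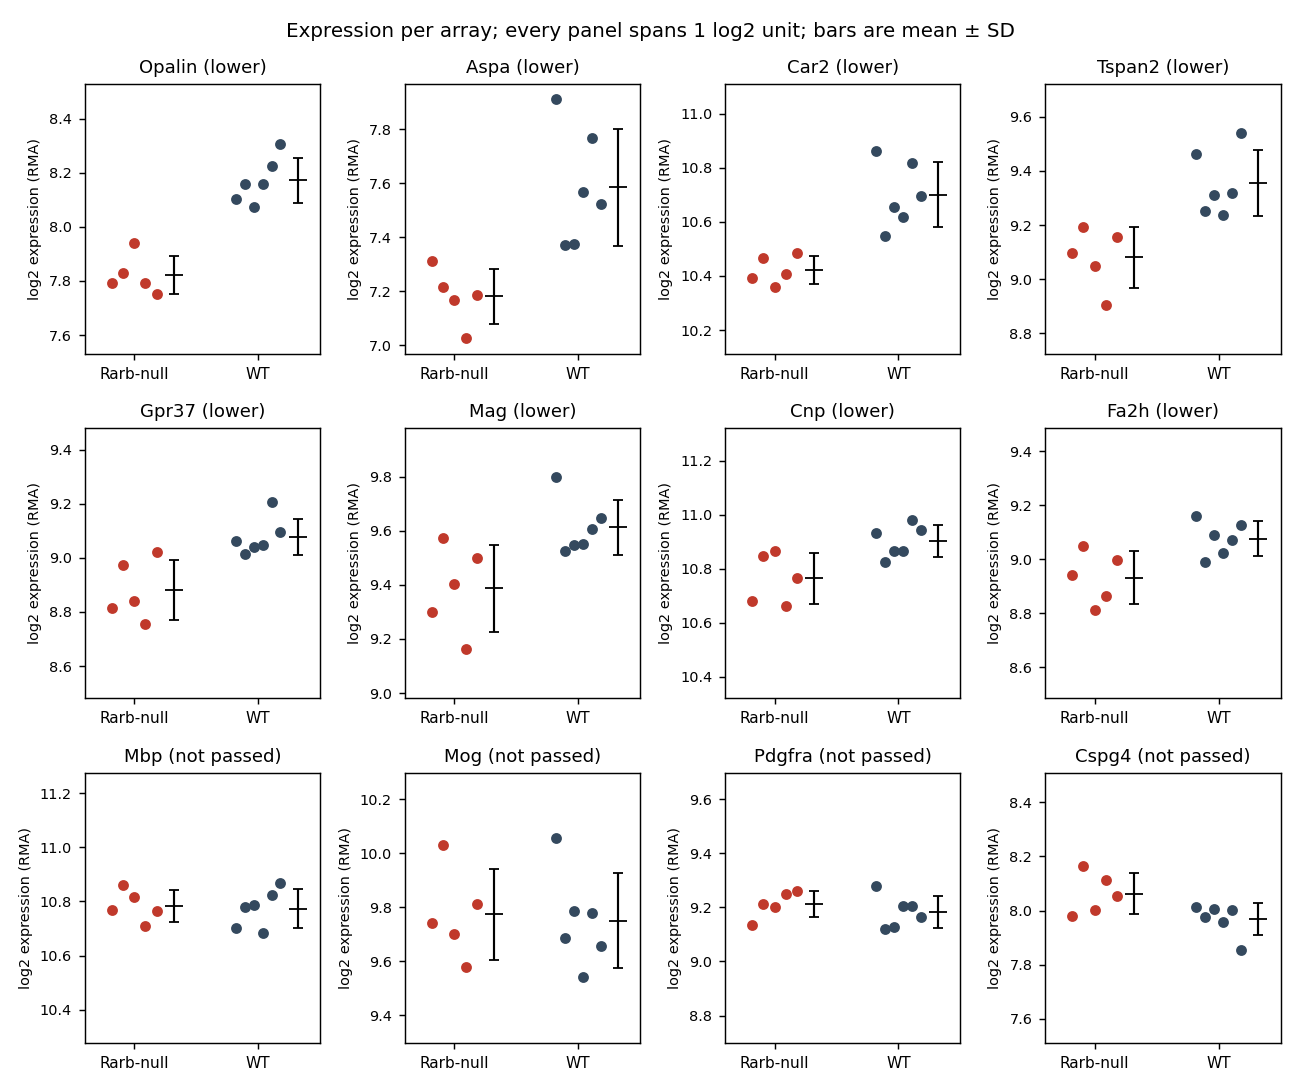
Log2 expression of 12 genes in every array, with 5 Rarb-null arrays in red on the left of each panel and 6 WT arrays in blue on the right, and the mean ± SD beside them. All Rarb-null points of Opalin, Aspa, Car2 and Tspan2 lie under all WT points, while those of Mbp, Mog and Pdgfra lie among them and 3 of Cspg4 lie above them.

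Enzymes that feed myelin lipid synthesis and oligodendrocyte metabolism, counted with the iron carrier gene Trf, held 3 falls among 6 tested genes. Of all genes 12% fell, and 1 of the 3, Fa2h, was called in few alternatives. Aspa encodes aspartoacylase, which splits N-acetylaspartate and so supplies acetate for lipids, and whose loss in humans causes Canavan disease. Aspa read 7.31, 7.22, 7.17, 7.03 and 7.19 in the Rarb-null arrays, against 7.37, 7.54 and 7.91 as the lowest, median and highest WT values. The groups did not overlap, yet WT values were spread widely: the mean was 7.18 ± 0.10 in Rarb-null and 7.59 ± 0.22 in WT arrays. The Rarb-null values lay near the filter level of 6.99, and a stricter filter left Aspa untested. The difference of -0.40 (SE 0.090, limma adjusted p = 0.00818) was the largest of the members. It missed the threshold with the cortical covariate (-0.42, limma adjusted p = 0.0515) and with the astrocyte covariate (-0.58, limma adjusted p = 0.0624).

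Car2, the gene of a cytosolic carbonic anhydrase that is abundant in oligodendrocytes, read 10.39, 10.46, 10.36, 10.41 and 10.48 in the Rarb-null arrays, against 10.55, 10.68 and 10.86 at the lowest, median and highest of the WT arrays. Rarb-null arrays lay close together, and all stood under the WT arrays. The difference was -0.28 (SE 0.053, limma adjusted p = 0.00311), and it passed in each of the 11 fits that left out 1 array. Fa2h, which hydroxylates the fatty acids of myelin galactolipids, read 8.94, 9.05, 8.81, 8.86 and 9.00 in the Rarb-null arrays and 8.99, 9.08 and 9.16 at the lowest, median and highest of the WT arrays. Rarb-null replicates 2 and 5 reached the WT range, and the difference of -0.14 (SE 0.047, limma adjusted p = 0.0453) was called under 7 of 23 alternatives and under no rescaling (limma adjusted p from 0.143 to 0.157).

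Ugt8a, the ceramide galactosyltransferase that acts next to Fa2h in the synthesis of galactolipids, differed by -0.19 without passing (SE 0.082, limma adjusted p = 0.124), and WT replicate 1 at 9.53 was its highest array. Gal3st1, which sulfates these lipids to sulfatide, was below the filter and read from 6.67 to 6.93 in Rarb-null and from 6.49 to 6.83 in WT arrays. Qdpr, an enzyme that regenerates the cofactor tetrahydrobiopterin, had a narrow spread and a difference of -0.06 (95% interval -0.13 to 0.01). The iron carrier gene Trf read 9.72, 10.10, 9.93, 9.71 and 10.01 in the Rarb-null arrays and 9.66, 9.89 and 9.99 at the lowest, median and highest of the WT arrays. Rarb-null replicates 2 and 5 lay above the WT range and the other 3 inside it, and the difference was 0.02 (-0.14 to 0.19).

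The transcription factor genes of the lineage did not pass, and the intervals of 4 of 5 included 0. That of Myrf also included falls of the size called for Cnp and Fa2h. Sox10, which switches on myelin genes together with Myrf, gave 0.02 (95% interval -0.06 to 0.10), reading from 8.17 to 8.31 in Rarb-null and from 8.13 to 8.29 in WT arrays. Olig2, needed for the specification of the lineage, gave -0.02 (-0.11 to 0.07), and its relative Olig1 gave -0.05 (-0.14 to 0.03). Myrf, the membrane-bound regulator that starts and maintains myelin gene transcription, gave -0.07 (-0.17 to 0.04). Nkx6-2, a homeobox gene that in mice shapes the paranodes, differed most at -0.12 (-0.22 to -0.01, limma adjusted p = 0.0987), and it was among the alternatives called only without WT replicate 2 (limma adjusted p = 0.042).

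Newly formed oligodendrocytes are marked by Bcas1, Gpr17 and Enpp6. Bcas1, present in cells at the onset of myelination, read 7.90, 7.65, 7.92, 7.78 and 7.95 in the Rarb-null arrays and 7.84, 7.97 and 8.10 at the lowest, median and highest of the WT arrays, with 2 Rarb-null arrays under the WT range. Its difference of -0.14 did not pass (SE 0.059, limma adjusted p = 0.114). Gpr17, a receptor gene of committed precursors, gave -0.02 (95% interval -0.12 to 0.08). Enpp6, a phosphodiesterase gene of the earliest postmitotic cells, was below the filter and read from 6.73 to 6.92 in Rarb-null and from 6.69 to 7.03 in WT arrays.

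All 3 precursor genes had positive differences, and none passed. Pdgfra, the receptor for the main growth factor of precursors, read 9.14, 9.21, 9.20, 9.25 and 9.26 in the Rarb-null arrays and 9.12, 9.19 and 9.28 at the lowest, median and highest of the WT arrays. The ranges coincided, with a difference of 0.03 (95% interval -0.05 to 0.11). Cspg4, the proteoglycan gene also used by pericytes, read 7.980, 8.166, 8.001, 8.111 and 8.055 in the Rarb-null arrays and 7.854, 7.988 and 8.012 at the lowest, median and highest of the WT arrays. It reached 0.10 (SE 0.041, limma adjusted p = 0.119), with 3 Rarb-null arrays over the WT range. C1ql1, a secreted complement-like protein gene of precursors, read 9.17, 9.08, 9.14, 9.12 and 9.20 in the Rarb-null arrays and 9.00, 9.08 and 9.14 at the lowest, median and highest of the WT arrays. The difference was 0.07 (SE 0.034, limma adjusted p = 0.17). It passed when the arrays were rescaled, by centring, repeated quantile normalisation or cyclic loess (differences of 0.105 to 0.108, limma adjusted p from 0.0307 to 0.0339). Under those rescalings 14.0%, 9.87% and 9.79% of all genes were called higher, in that order.

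Averaged over each stage, the mature members had a mean level of 8.97 ± 0.07 in Rarb-null arrays (8.87 to 9.06) and 9.08 ± 0.07 in WT arrays (9.01 to 9.18), with overlap. The 3 precursor members averaged 8.805 ± 0.033 in Rarb-null arrays (8.76 to 8.84) and 8.741 ± 0.041 in WT arrays (8.67 to 8.80). For the 3 newly formed members the means were 7.62 ± 0.085 in Rarb-null and 7.70 ± 0.062 in WT arrays, and for Sox10, Olig1 and Olig2 together they were 8.59 ± 0.055 in Rarb-null and 8.61 ± 0.038 in WT arrays (SD, n = 5 and 6). The mature mean was thus lower and the precursor mean higher in Rarb-null arrays, and no test was made on these averages because the genes were chosen with results known.

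**Figure D3:**
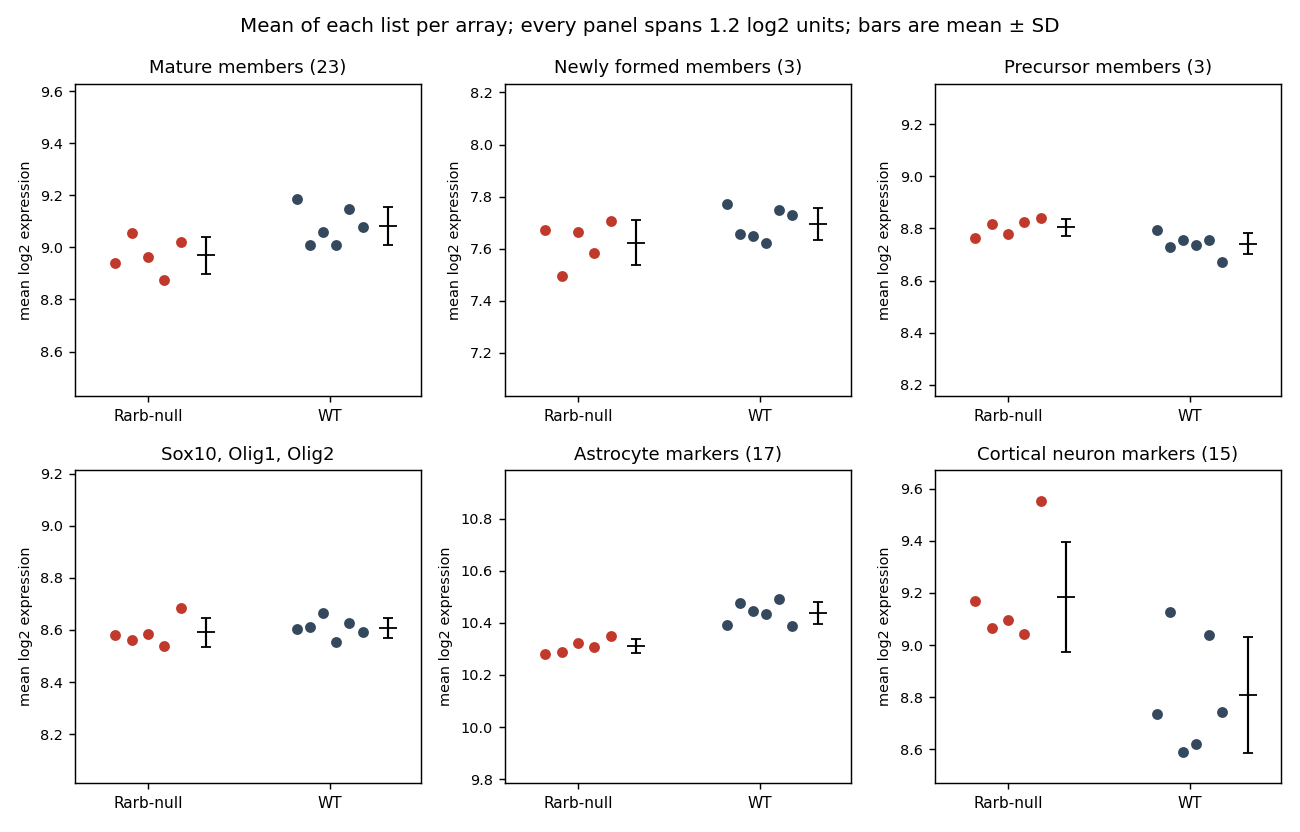
Mean log2 expression per array of each stage of the lineage and of astrocyte and cortical neuron markers, with 5 Rarb-null arrays in red on the left, 6 WT arrays in blue on the right, and the mean ± SD. Mature members run from 8.87 to 9.06 in Rarb-null and from 9.01 to 9.18 in WT arrays, and astrocyte markers from 10.28 to 10.35 in Rarb-null and from 10.39 to 10.49 in WT arrays without overlap.

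Within each genotype a few arrays held most of the extreme values of the mature genes. Rarb-null replicate 4 had the lowest of the 5 values for 14 of the 23 mature genes, and Rarb-null replicate 2 the highest for 12. Among WT arrays, replicate 1 was highest for 10 and replicate 2 lowest for 12. Of the 29 tested members 20 had a within-genotype SD above the median of all genes tested, with medians of 0.084 for the members and 0.074 for all genes. The spread was largest for Ermn, Aspa and Mog, with SDs of 0.189, 0.175 and 0.171, and smallest for Qdpr and C1ql1, with 0.043 and 0.049.

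Further genes of the same cells were counted in the same fit. Of 42 tested genes of mature oligodendrocytes outside the members, 8 fell and 2 rose, or 19.0% and 4.76%, against 12% and 7.56% of all genes tested, and 32 did not pass, with a median of -0.04. By limma, the falls with the smallest p were Il33 (-0.34, SE 0.060), the gene of a nuclear cytokine that astrocytes also make, the junction molecule gene Jam3 (-0.16), the galactolipid-degrading enzyme gene Galc (-0.18) and Car14 (-0.13), a membrane carbonic anhydrase gene. Tmeff2, a transmembrane protein gene also used by neurons, rose by 0.51 (SE 0.041), and Sox8, a relative of Sox10, rose by 0.23 (SE 0.0545). For Galc the mean was 8.55 ± 0.08 in Rarb-null and 8.73 ± 0.08 in WT arrays. There were 4 falls when Rarb-null replicate 3 was dropped, where 8.07% of all genes were lower. Dropping any 1 of Rarb-null replicates 1, 4 and 5 or WT replicates 1 and 5 gave 5 falls, where 9.16% to 12.7% were lower. These counts are near the background. With arrays centred there were 3 falls among the 42, close to the 7.85% of all genes called lower there.

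Of 24 tested genes of precursors and early differentiating cells outside the members, 6 fell and 1 rose, or 25.0% and 4.17%, against 12% and 7.56% of all genes tested, with a median of -0.05. The proteoglycan gene Vcan fell by 0.33 (SE 0.060), the tetraspanin gene Cd9 by 0.23 (SE 0.048), the growth factor receptor gene Egfr by 0.14 and Cspg5 by 0.10. The remaining falls were Cacng4 (-0.13) and Pcdh15 (-0.20). Astrocytes are known to use Egfr, Cspg5 and Cd9 as well. Tnr, the gene of the matrix glycoprotein tenascin-R, rose by 0.27 (SE 0.038). Dropping Rarb-null replicate 3 gave 3 falls, dropping WT replicate 4 gave 2, centring the arrays gave 2, and dropping Rarb-null replicate 4 gave 2 rises. Of all genes, 8.07% were lower without Rarb-null replicate 3, 8.94% without WT replicate 4 and 7.85% with arrays centred. Counts of 2 falls among 24 are thus near the background. Of the 24 genes 15 had negative and 9 positive differences, whereas all 3 precursor members were positive.

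Markers of some other cell types moved with genotype in the same arrays, where 12% of all genes tested fell and 7.56% rose. Of 17 astrocyte markers 8 fell (47.1%) and 1 rose (5.88%). Their mean ran from 10.28 to 10.35 in Rarb-null and from 10.39 to 10.49 in WT arrays, without overlap. With this mean as a covariate 2 members stayed lower, Opalin (-0.38, limma adjusted p = 0.0281) and Tspan2 (-0.48, limma adjusted p = 0.0247), while Gpr37 gave -0.10 (limma adjusted p = 0.554). In that fit 7.61% of all genes were lower, so 2 of 29 members is near the background. Since the astrocyte mean itself separated the genotypes, standard errors grew in this fit, to 0.195 for Aspa. Of 15 cortical neuron markers 5 rose (33.3%) and 0 fell. Their mean ran from 9.04 to 9.55 in Rarb-null and from 8.59 to 9.13 in WT arrays. With that level as a covariate Opalin, Car2 and Gpr37 stayed lower, against 7.42% of all genes, and the median of the mature members was -0.14.

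Projection neuron markers, the main neurons of the tissue, gave 10 falls among 18 (55.6%), against 12% of all genes. Their mean ran from 11.43 to 11.58 in Rarb-null and from 11.70 to 11.79 in WT arrays. Microglial markers gave 2 falls among 14 (14.3%), near the share of all genes. Markers of endothelial and mural cells gave 0 calls among 15, and Schwann cell markers, which would mark peripheral myelin, 0 calls among 3. Ependymal and choroid plexus markers gave 2 rises and 1 fall among 4. Meningeal fibroblast markers gave 3 rises among 7, with means from 7.64 to 7.89 in Rarb-null and from 7.40 to 7.74 in WT arrays, and Pdgfra is also expressed by fibroblasts. The part of these cell types in the values of the members was not tested beyond both covariate fits. None of the 32 members lies on chromosome 14, which carries Rarb.

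**Figure D4:**
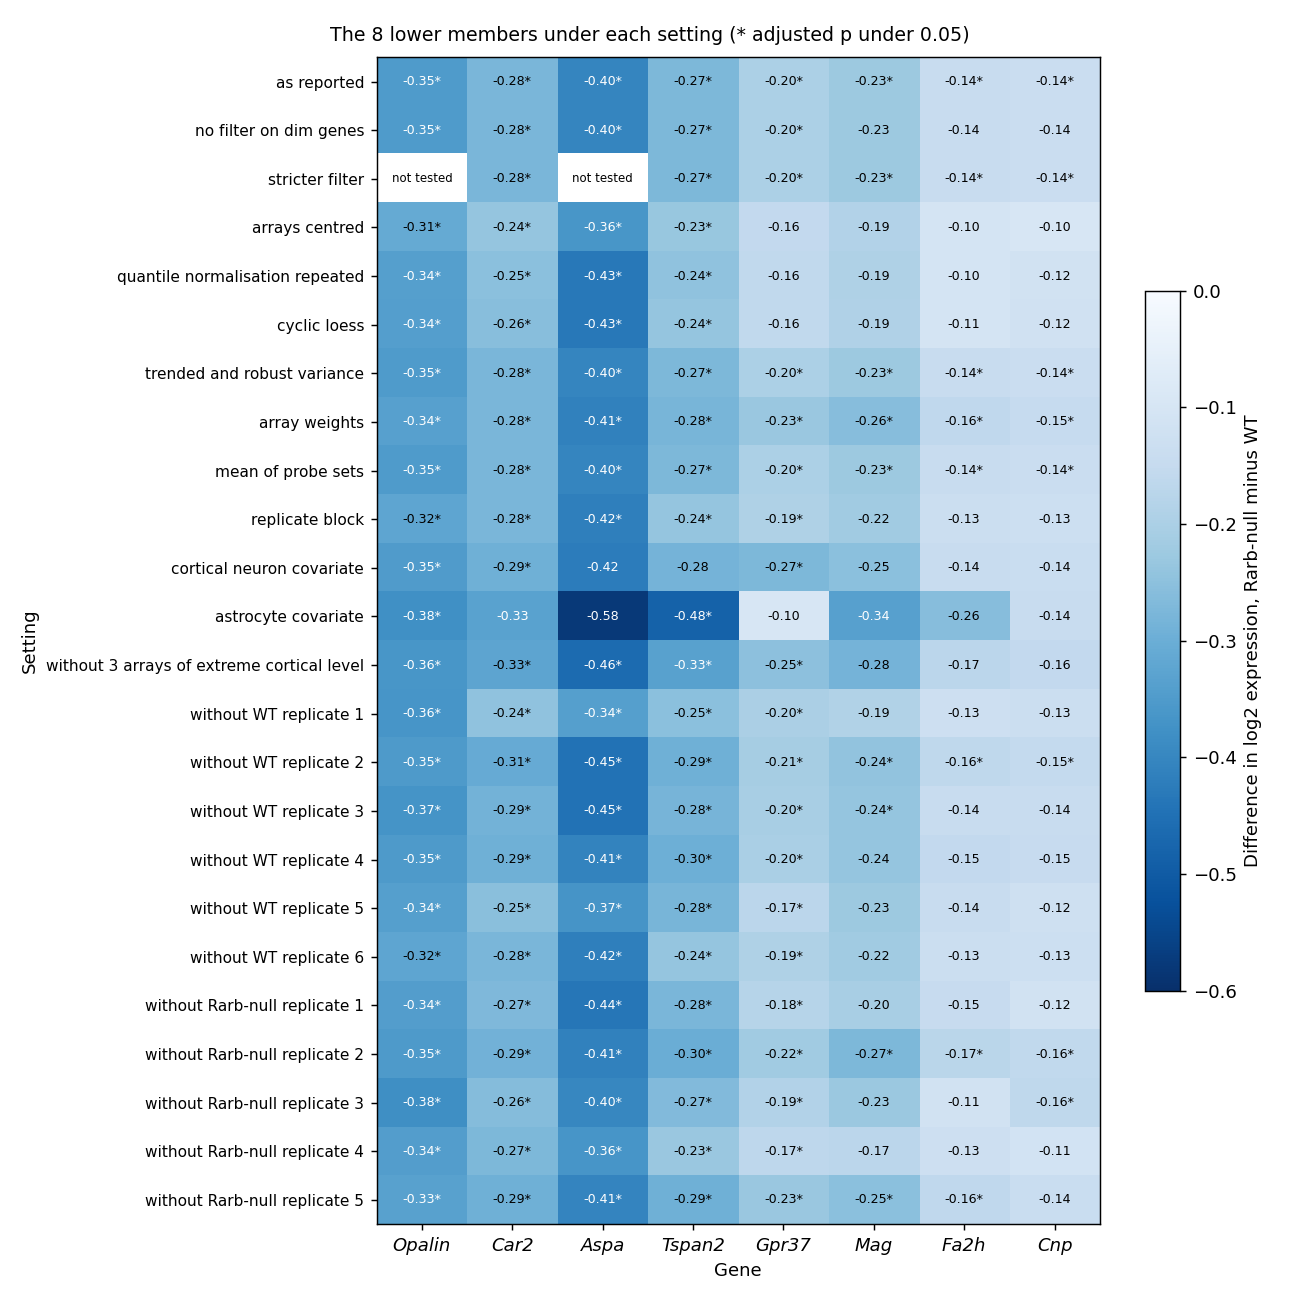
Difference in log2 expression, Rarb-null minus WT, of the 8 lower genes under the reported fit and each alternative, with an asterisk where the adjusted p was under 0.05. Opalin keeps its asterisk in every setting that tested it, and Mag, Fa2h and Cnp lose theirs in most.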

How the data were processed

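The deposited values were log2 expression from robust multi-array analysis (RMA), which the authors applied as the labels' descriptions and the submitters' processing notes say (per the labels). This method removes background, equalises array distributions and summarises probes, which compresses differences of dim genes. Base 2 was inferred from the range of the values. Software version, probe annotation and any scan batch: not given in the sources used here. RNA (100 ng per mouse) came from 3 sections of 300 µm. Signal over background was not measured, and the number of arrays limits the precision.

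Probe sets with 1 symbol (21789 of 35556) were named from the platform table, with symbols updated through a RefSeq table of assembly GRCm38.p6. Where a gene had more than 1 probe set, that of highest mean was taken, and testing was limited to genes whose mean exceeded log2 6.99, the 40th percentile. Genotypes were compared by moderated linear models without covariates (limma 3.58.1, R 4.3.3), with Benjamini-Hochberg adjustment over 11963 genes and a threshold of 0.05. On simulated arrays with the spread of these 11963 genes, Rarb-null against WT, the fit recovered 68% of genes changed by 0.25 and 100% of those changed by 0.5, with 5 false calls. The simulated noise was independent between genes and held no offset between genotypes. Its false calls therefore do not cover the offset or the shared variation of the real arrays.

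The members and lists were chosen with earlier results of these data known. All members are accounted for. Of the longer lists, up to 4 called genes in each direction with the smallest p are named, and in the precursor list all falls. Promoter windows were read from RefSeq, and their orientation was checked by the position of TATAAA. Figures were drawn with matplotlib 3.10.9.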

Additional observations from a re-analysis of the deposited data

Results flagged for a closer look

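In 5 of 64 sets of values (32 genes in each genotype) 1 array stood apart from the others of its genotype, where chance alone marks about 1 in 20. Rarb-null replicate 4 was low for Cldn11 (9.675, against 9.829 to 9.863 in the other Rarb-null arrays) and for Ugt8a (8.860, against 9.017 to 9.076). WT replicate 6 was low for Gal3st1 (6.486, against 6.787 to 6.828 in the other WT arrays) and for the precursor gene Cspg4 (7.854, against 7.958 to 8.012). WT replicate 5 was high for Qdpr (11.137, against 10.989 to 11.024).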

How the results depend on the processing

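Counts of calls moved with scaling and covariates, and some differences did too. Members called lower numbered 8 as reported, 5 with no filter on dim genes, 4 with arrays centred, quantile normalisation repeated or cyclic loess, 3 with the cortical covariate, 2 with the astrocyte covariate, 5 without the 3 arrays of extreme cortical level (WT replicates 3 and 4 and Rarb-null replicate 5) and 4 at an adjusted p of 0.01. They ranged from 5 to 10 over the fits that left out 1 array. Deviations of same-numbered arrays of both genotypes correlated at 0.257, 0.056, 0.255, 0.188 and 0.425. Taking the numbers as pairs required every value to exceed 0.1, which 1 did not, and the labels tie no number to a litter or day. With the replicate block 6 were lower (Opalin, Car2, Aspa, Tspan2, Gpr37 and Ermn), Mag, Cnp and Fa2h were not (limma adjusted p = 0.0581, 0.0825 and 0.0792), and the lists outside the members had 7 mature and 5 precursor falls, so no count of falls moved by over 1.5 times. The 5 lower calls without a filter were tested among 19938 genes. Members called higher numbered 0 as reported (limma) and 1, C1ql1, under each of the 3 rescalings. Under these 14.0%, 9.87% and 9.79% of all genes were higher. At an unadjusted limma p under 0.05 only Cspg4 had a positive difference. Leaving out arrays gave 0 members called higher throughout.

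In the longer mature list the 2 rises became 4 under each rescaling and at an adjusted p of 0.1, and 1 at 0.01 (2 to 3 over arrays left out). Of all genes, 14.0%, 9.87% and 9.79% were higher under the rescalings, 11.4% at 0.1 and 2.78% at 0.01. Falls in that list, 8 as reported, were 3 with arrays centred and 5 with quantile normalisation repeated. They were 4 with the cortical and 2 with the astrocyte covariate, 2 without the 3 arrays and 1 at 0.01 (4 to 7 over arrays left out). The shares of all genes lower in these settings are those given above with the members. In the longer precursor list the single rise became 2 with arrays centred, the replicate block, the astrocyte covariate or an adjusted p of 0.1 (1 to 2 over arrays left out). In those settings 14.0%, 9.02%, 8.26% and 11.4% of all genes were higher, in that order. The 6 falls of that list became 3 with the stricter filter, which tested 10 of its genes and called 15.2% of all genes lower. They became 2 with arrays centred, either covariate, the 3 arrays left out or 0.01 (2 to 7 over arrays left out). The median of mature members ran from -0.140 to -0.095 over arrays left out and from -0.139 to -0.075 over the other alternatives. That of precursor and newly formed members ran from 0.016 to 0.048 and from 0.006 to 0.069.

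The 8 called differences kept their sign in every alternative run. Among the 21 that did not pass, 10 genes changed sign in 35 fits, in none of which they were called. With arrays centred, quantile normalisation repeated and cyclic loess the values were 0.011, 0.004 and 0.007 for Mobp, 0.018, 0.010 and 0.010 for Cldn11, 0.017, 0.013 and 0.011 for Olig2 and 0.022, 0.007 and 0.006 for Gpr17, which gave 0.002 with array weights. With the cortical covariate they were -0.006 for Mbp, -0.016 for Sox10 and -0.045 for Trf. With the astrocyte covariate they were -0.104 for Mog, 0.049 for Olig1, 0.006 for Olig2 and 0.175 for Ppp1r14a. Without the 3 arrays they were -0.005 for Mbp, -0.030 for Mog and -0.054 for Trf. Over arrays left out Mbp ran from -0.010 to 0.028, Mog from -0.042 to 0.084, Mobp from -0.066 to 0.002, Cldn11 from -0.052 to 0.012, Gpr17 from -0.041 to 0.029 and Trf from -0.030 to 0.068. The causes were not tested.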
